A study of Mus musculus with 4 samples.

Results

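The 9 genes described here, Stfa1, Stfa2, Stfa3, Stfa2l1, Csta2, Csta3, Cstdc4, Cstdc5 and Cstdc6, are stefin A genes of mouse chromosome 16, found among 56941 genes by their symbols. They were chosen because earlier results from these libraries had shown their levels, so levels and ratios are given as a description. The series compared mouse bone marrow cells, wild type (WT) or labelled Rbm5 knockout (KO), by droplet single-cell RNA sequencing in 4 libraries, 1 per group. Normal marrow was taken as c-Kit+ cells (WT c-Kit+ and KO c-Kit+), and leukaemia cells driven by the MLL-AF9 fusion were collected at the same endpoint after a first transplantation (WT MLL-AF9 and KO MLL-AF9). The question was how loss of Rbm5, an RNA-binding splicing regulator, alters expression in leukaemia beside normal progenitors. With 1 library per group no difference could be tested between genotypes or tissues, and every interval below is a 95% interval for counting error in these libraries, not for the spread between mice. The promoter or Cre behind the deletion, the number of mice pooled and their ages are not given in the labels used here.

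Stefins are small proteins that stay inside the cell and block papain-like cysteine proteases such as cathepsins B, H, L and S. Humans carry a single stefin A gene, CSTA, whereas the mouse has a tandem array of copies, several of which are known as transcripts of neutrophils and their precursors. The closely related Cstb encodes stefin B on another chromosome, and Cst3 and Cst7 encode secreted or vesicular cystatins.

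The members span 299 kb of chromosome 16 (GRCm38, 36156811 to 36455392), each with 3 exons in GENCODE M21. From low to high coordinate the order is Stfa2l1, Cstdc4, Csta3, Csta2 and Stfa1 on the plus strand, then Cstdc6, Cstdc5, Stfa2 and Stfa3 on the minus strand, 5 genes facing 4. The copies are alike in coding sequence, with a median identity of 78.8% over the 36 pairs (range 56.5% to 96.9%). Csta2 and Cstdc4 form the closest pair at 96.9%, Stfa2 and Stfa2l1 follow at 96.5%, and Cstdc5 and Cstdc6 at 95.2%. The last 120 coding bases of 2 of these pairs are shown because the 3′ tags that were counted have to be assigned between such copies. Capitals mark the bases that differ within a pair, 7 between Csta2 and Cstdc4 and 4 between Cstdc5 and Cstdc6.
Csta2: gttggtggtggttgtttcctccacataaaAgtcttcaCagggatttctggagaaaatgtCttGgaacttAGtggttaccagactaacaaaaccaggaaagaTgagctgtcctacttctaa
Cstdc4: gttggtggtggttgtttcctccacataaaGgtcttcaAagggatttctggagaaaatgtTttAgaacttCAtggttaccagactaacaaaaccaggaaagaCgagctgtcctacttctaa
Cstdc5: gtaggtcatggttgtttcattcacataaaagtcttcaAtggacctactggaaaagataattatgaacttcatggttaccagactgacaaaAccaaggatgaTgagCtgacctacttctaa
Cstdc6: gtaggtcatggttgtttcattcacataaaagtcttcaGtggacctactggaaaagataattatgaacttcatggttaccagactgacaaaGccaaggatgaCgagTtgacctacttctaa
Of the stretches of 50 bases in each transcript, the share also found in another gene's transcript was 0% for Stfa3 and Csta3, between 15.9% and 35.6% for 6 members and 39.2% for Csta2. For stretches of 90 bases the share was 0% for the first pair and between 2.09% and 22.0% for the others. Over the last 200 bases of the transcript, nearer to where 3′ tags lie, the shares for 50 and 90 bases were 57.5% and 39% for Cstdc5, 44.5% and 9% for Stfa1, 42.5% and 24.5% for Cstdc6, 42.5% and 22.5% for Csta2, 28% and 4% for Stfa2, 18.5% and 18.5% for Cstdc4, and 7% and 0% for Stfa2l1. How reads shared between copies were handled is not given in the sources used here, so counts of Csta2, Cstdc4, Cstdc5, Cstdc6, Stfa1, Stfa2 and Stfa2l1 carry an uncertainty of assignment. The annotated transcripts of Csta2 and Csta3 hold coding bases only (294 bases).

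Sequence before the annotated RefSeq starts did not always follow the coding pairs. RefSeq promoter windows (GRCm38.p6) were found for 8 members, all but Cstdc6. Over the 250 bases before the RefSeq start, Stfa2 and Stfa2l1 were 89.4% identical, the highest of 28 pairs. Csta2 and Cstdc4, the pair with the most alike coding sequence, were 41.0% identical, the lowest. In GENCODE M21 the Csta2 gene runs from 36221468 to 36257444 and the shorter Cstdc4 gene from 36184212 to 36188111. Whether the starts compared correspond between these genes was not tested. The pair Cstdc5 and Cstdc6 could not be compared. Of the 8 windows, 7 hold the letters TTTAAAA (searched on both strands), which occur in 8.10% of 32851 promoter windows of the same length. The exception is Csta2. That motif was picked after the windows had been read. The windows belong to related copies, with a median identity of 65.9% over the 28 pairs. They are not independent of each other, which limits every motif count given here. TATAAA was in 0 of 8 windows (12.4% of all windows), TTNNGNAA, a C/EBP-like pattern, in 6 of 8 (36.8%), AGGAAG, a PU.1-like pattern, in 5 of 8 (29.5%), CCAAT in 6 of 8 (33.8%) and TGANTCA in 0 of 8 (6.75%). The Csta2 window is shown with those of 3 other members because it lacks TTTAAAA. Whether upstream sequence bears on the levels given below was not tested. Capitals mark TTTAAAA and TTNNGNAA, which do not overlap in these windows, and the Csta2 window holds neither.
Csta2, chr16:36221312-36221561, plus strand: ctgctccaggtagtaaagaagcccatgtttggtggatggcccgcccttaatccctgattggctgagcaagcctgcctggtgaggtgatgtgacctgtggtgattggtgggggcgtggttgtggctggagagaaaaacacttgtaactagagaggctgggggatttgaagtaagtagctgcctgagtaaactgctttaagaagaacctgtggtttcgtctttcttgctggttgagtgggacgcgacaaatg
Cstdc4, chr16:36183962-36184211, plus strand: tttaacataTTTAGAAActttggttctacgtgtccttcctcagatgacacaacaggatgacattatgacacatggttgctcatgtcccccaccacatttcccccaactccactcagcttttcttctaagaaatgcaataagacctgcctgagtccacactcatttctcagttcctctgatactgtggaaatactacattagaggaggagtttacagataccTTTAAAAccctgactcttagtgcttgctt
Stfa1, chr16:36276898-36277147, plus strand: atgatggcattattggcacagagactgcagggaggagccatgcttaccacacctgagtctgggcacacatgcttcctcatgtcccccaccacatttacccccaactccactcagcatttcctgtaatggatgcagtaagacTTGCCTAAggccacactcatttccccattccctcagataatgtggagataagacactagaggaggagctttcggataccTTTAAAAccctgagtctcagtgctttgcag
Stfa2l1, chr16:36156561-36156810, plus strand: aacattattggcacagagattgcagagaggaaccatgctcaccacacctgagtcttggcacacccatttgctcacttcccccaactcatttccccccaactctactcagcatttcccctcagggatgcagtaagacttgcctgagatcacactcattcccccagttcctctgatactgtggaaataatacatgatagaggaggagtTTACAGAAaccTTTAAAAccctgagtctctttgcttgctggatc
In Stfa1, Stfa2, Stfa3, Stfa2l1 and Cstdc4 the TTTAAAA block begins 29 to 33 bases before the start, in Csta3 77 bases and in Cstdc5 9 bases before it. A match of letters is a description of the window, and no binding was measured.

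The kept cells numbered 11406 to 13284 per library, with median totals of 5168 to 7310.5 UMIs (unique molecular identifiers, each counting 1 captured molecule). Between 44 and 69 barcodes were shared by any pair of libraries. Kit had a UMI in 17.0% and 17.9% of the WT and KO c-Kit+ cells, and 48.2% and 45% of those cells fell in a class of neutrophil precursors with secondary granule transcripts, so the sorted cells as deposited are not mostly cells with detected Kit. Rbm5 was at 75.4 and 89.9 CPM (UMIs of a gene per 1000000 UMIs) in the c-Kit+ libraries, WT first, and at 160 and 116 CPM in the leukaemia libraries. Where 4 values follow a gene below, they are in that order. These 3′ tags need not lie in the deleted part and do not check the KO label, so KO below always means the library labelled KO. Meis1, a target of MLL fusions, was at 44.1 and 47.3 CPM in the c-Kit+ libraries and at 509 and 346 CPM in the WT and KO leukaemia libraries. Between the leukaemia libraries 9897 genes reached an average of 5 CPM, and their median log2 ratio was -0.39 (KO over WT), against -0.03 with median-ratio size factors.

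Every member was higher in leukaemia than in c-Kit+ marrow, in both genotypes. Summed over the members, the level was 60.7 CPM in WT c-Kit+, 73.5 in KO c-Kit+, 5582 in WT MLL-AF9 and 2930 in KO MLL-AF9 cells. The WT leukaemia sum was 92.0-fold that of WT c-Kit+ cells (interval 89.5 to 94.6), and the KO sum was 39.9-fold (38.9 to 40.8). Of 7 members at a mean of 5 CPM or more, 7 were at least 2-fold higher in leukaemia in each genotype, beside 16% of all genes in WT and 12.8% in KO. All genes past 2-fold lower were 6.01% in WT and 13% in KO, and 0 members were. Over all genes the median log2 value of this ratio was 0.27 in WT and -0.04 in KO. In such sums fewer expressing cells and less RNA per cell cannot be told apart, and counts per cell follow below.

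Stfa1 was the most abundant member in leukaemia. Its level was 13.8 (WT) and 26.4 (KO) CPM in c-Kit+ marrow and 1807 and 1002 CPM in WT and KO leukaemia cells, where it ranked 52 and 141 among all genes. Cstdc5 was at 4.47, 9.81, 1758 and 735 CPM in the same order, and its WT leukaemia level was 393-fold that of WT c-Kit+ cells (356 to 435), the highest ratio of the 9. Cstdc4 was at 15.7, 12.9, 1121 and 456 CPM. Stfa2 was at 2.27, 2.06, 379 and 278 CPM, a WT ratio of 167 (145 to 193). Its coding-sequence neighbour Stfa2l1, the most abundant member in WT c-Kit+ cells, was at 20.05, 17.1, 352 and 349 CPM, a WT ratio of 17.6 (16.7 to 18.4), the lowest of the 9. Stfa2 and Stfa2l1, alike in coding and upstream sequence, thus had intervals of this ratio that lie far apart. Stfa3 was at 3.94, 4.46, 138 and 68.6 CPM. The 3 scarce members were Csta2 at 0.2997, 0.541, 15.1 and 27.0 CPM, Csta3 at 0.161, 0.156, 9.66 and 7.49 CPM, and Cstdc6 at 0.0461, 0.0936, 2.51 and 6.53 CPM. Cstdc6 rested on 4 and 9 UMIs in the c-Kit+ libraries.

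**Figure D1:**
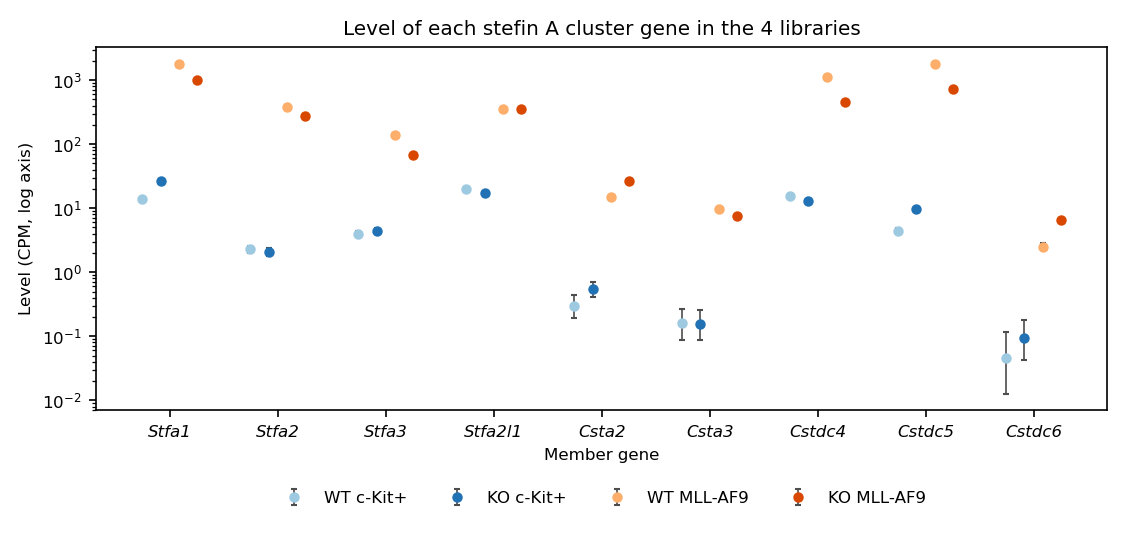
Level of each member gene in CPM on a log axis, 1 point per library, with exact 95% Poisson bars for counting error. Leukaemia libraries (orange) sit above c-Kit+ libraries (blue) for all 9 genes, and WT lies above KO leukaemia for Stfa1, Stfa2, Stfa3, Csta3, Cstdc4 and Cstdc5, below it for Csta2 and Cstdc6.

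The members were followed across cell classes gated on sets of 5 marker genes, none of them a member. A class is a range cut from a marker score. In c-Kit+ libraries 3 to 4 cells of the late and 1 to 9 cells of the secondary granule class lay less than 20% above the limit. In leukaemia there were 95 such cells in each late class and 192 (WT) and 155 (KO) in the secondary granule class. Cells just below a limit were not counted here. In c-Kit+ marrow the level of the sum was highest in late neutrophils. It was 10.2 and 6.83 CPM in WT and KO neutrophil progenitors (Mpo, Elane), 41.1 and 88.3 CPM in secondary granule cells (Ltf, Camp) and 1059 and 1107 CPM in late neutrophils (Cxcr2, Retnlg). In T or NK cells it was 0 UMIs in 65 WT and 69 KO cells, with median depths of 3072 and 3002 UMIs. The late class, 9.77% and 8.24% of cells, held 64.1% and 44.1% of all member UMIs, and the far larger secondary granule class held 30.3% and 50.6%. Stfa1 had most of its UMIs in secondary granule cells, 68.2% in WT and 83.9% in KO, while Cstdc4 had 87.6% and 85.1% in late neutrophils.

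The mixture of members also differed between stages. In c-Kit+ secondary granule cells Stfa1 gave 51.0% (WT) and 59.5% (KO) of member UMIs, followed by Stfa2l1 with 18.8% in WT and Cstdc5 with 18.9% in KO. In late neutrophils Stfa2l1 gave 39.7% and 36.8% and Cstdc4 35.3% and 34.0%, while Stfa1 gave 9.33% and 9.76%. Stfa1 led in the earlier class and Stfa2l1 and Cstdc4 in the later, in both genotypes.

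In leukaemia the rank of the classes was another. The sum was 1248 and 531 CPM in WT and KO progenitors, 14783 and 4493 CPM in secondary granule cells and 9920 and 2966 CPM in late neutrophils, so the secondary granule class exceeded the late class in both libraries. Stfa1 gave 54.3% and 57.9% of the member UMIs of progenitors. Cstdc5 and Stfa1 shared the lead in secondary granule cells, with 34.1% and 30.3% in WT and 26.2% and 33.5% in KO. Late cells had 18.5% (WT) and 17.0% (KO) Stfa2, a gene at 0.964% and 1.09% in progenitors. The leukaemia late cells are not the same population as the normal ones: their late marker sum had a median of 92.5 (WT) and 97.5 (KO) per 10000 UMIs against 437 and 432 in c-Kit+ late cells, and Meis1 was at 677 and 400 CPM in them against 16.3 and 12.8 CPM. T or NK cells of the leukaemia libraries had 168 (WT) and 88.2 (KO) CPM of member UMIs, and the part of free RNA in these values was not tested. Class II high cells, with 208 and 109 CPM, were near the T or NK level. Secondary granule cells of leukaemia also differed from the normal ones. Their median marker sum was 442 (WT) and 572 (KO) against 1231 in each c-Kit+ library, and Meis1 was at 485 and 335 CPM against 4.45 and 5.28 CPM. Set against the class of the same name in c-Kit+ marrow, the sum was 360-fold (343 to 378) in WT and 50.9-fold in KO secondary granule cells. In late cells it was 9.36-fold (9.03 to 9.71) in WT and 2.68-fold (2.57 to 2.79) in KO. Past 2-fold higher were 8 of 8 members in both secondary granule comparisons (24.8% of all genes in WT, 18% in KO), 9 of 9 in WT late cells (29%) and 5 of 8 in KO late cells (19.1%).

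**Figure D2:**
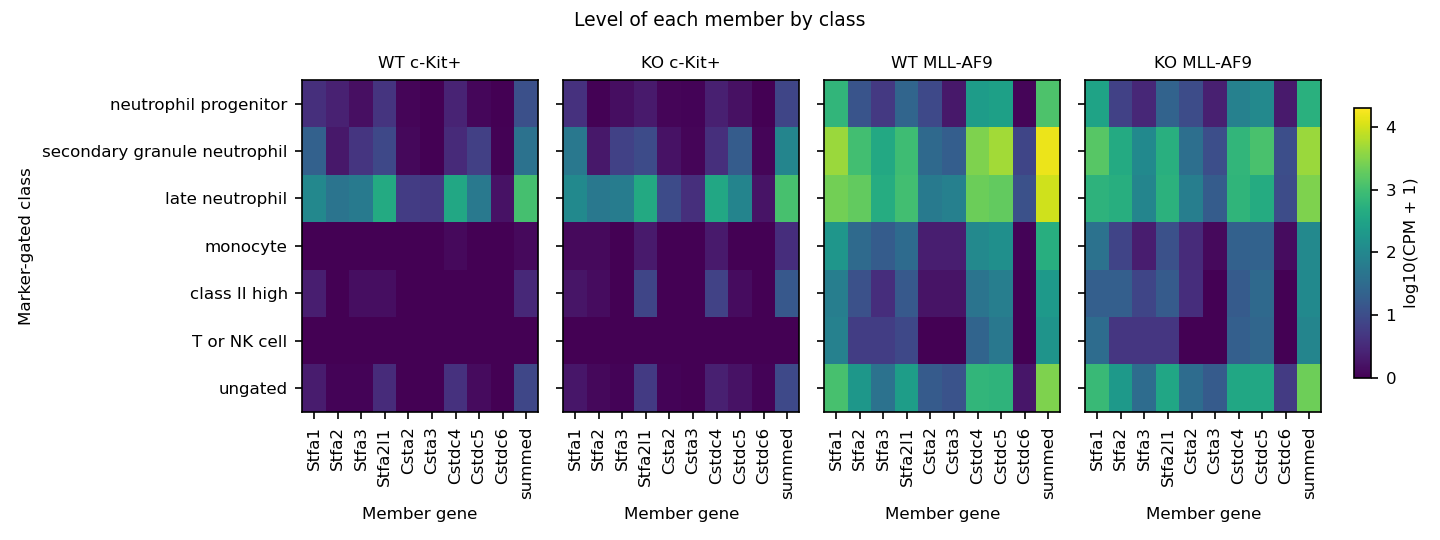
Level of each member and of their sum, as log10(CPM + 1), in 7 marker-gated classes (rows) of the 4 libraries (panels). In c-Kit+ marrow the late neutrophil row is the brightest, with sums of 1059 and 1107 CPM, and in leukaemia the secondary granule row is, with 14783 and 4493 CPM.

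Detection follows the same order. After every cell was thinned to 2000 UMIs, leaving out 1423, 1772, 1188 and 510 shallower cells, a UMI of any member was seen in 4.81% of WT c-Kit+ cells (4.42% to 5.23%), 5.45% of KO c-Kit+ cells (5.04% to 5.88%), 46.4% of WT leukaemia cells (45.5% to 47.3%) and 32.4% of KO leukaemia cells (31.6% to 33.3%). The unthinned shares were 8.05%, 9.96%, 73.4% and 56.9%. T or NK cells thinned alike gave 0 of 56 and 0 of 59 cells in the c-Kit+ libraries, which allows shares of up to 5.36% and 5.08% (3 counts of the total), and 30.1% and 21.7% in WT and KO leukaemia. Leukaemia progenitors, at 33.4% (WT) and 18.6% (KO), were near or below the T or NK shares, and the counts that follow use cells with many member UMIs.

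In c-Kit+ marrow many of the cells with member UMIs had nearly all of them from a single gene. Among cells with 10 or more member UMIs, a limit set after the data were seen, a single gene held 90% or more of them in 91 of 165 WT c-Kit+ cells, 55.2% (47.2% to 62.9%), and in 111 of 201 KO c-Kit+ cells, 55.2% (48.1% to 62.2%). In 75 (45.5%) and 84 (41.8%) of the 165 and 201 cells no UMI of another member was seen. The share depended on the limit: with 20 or more member UMIs it was 35.2% of 54 WT cells and 44.4% of 72 KO cells. The gene held by such cells varied from cell to cell. In WT it was Stfa2l1 in 30, Stfa1 in 27, Cstdc4 in 26, Cstdc5 in 5, Stfa2 in 2 and Stfa3 in 1 cell, and in KO Stfa1 in 49, Stfa2l1 in 27, Cstdc4 in 17, Cstdc5 in 9, Stfa3 in 6 and Stfa2 in 3 cells. Csta2, Csta3 and Cstdc6 led in 0 of these cells. The KO c-Kit+ cell with most Stfa1 had 77 UMIs of it.

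The same count was made within classes. In the late neutrophil class no gene gave more than 40.9% (WT) or 36.5% (KO) of the pooled member UMIs of such cells, yet a single gene held 90% or more in 58 of 117 WT cells (49.6%, interval 40.2% to 59.0%) and 53 of 107 KO cells (49.5%, 39.7% to 59.4%). No UMI of another member was seen in 40.2% and 35.5% of these late cells. In the secondary granule class the counts were 31 of 40 WT cells and 56 of 85 KO cells.

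In leukaemia such cells were a small share. A single gene held 90% or more of the member UMIs in 99 of 2121 WT cells, 4.67% (3.81% to 5.65%), and in 92 of 1606 KO cells, 5.73% (4.64% to 6.98%), and the median cell showed 5 members in both. Leukaemia cells with 10 or more member UMIs had more of them, a median of 138 in WT and 81 in KO against 15 and 16 in the c-Kit+ libraries. Cells with 10 to 19 member UMIs in each library gave 64.9% (55.2% to 73.7%) in WT c-Kit+, 61.2% (52.3% to 69.7%) in KO c-Kit+, 18.1% (14.1% to 22.7%) in WT leukaemia and 18.3% (14.4% to 22.7%) in KO leukaemia. Within late cells of that range the shares were 60.5%, 56.8%, 25% and 17.0% in the same order. The median share of UMIs from members in T or NK cells of WT leukaemia was 0.0157%, under 1 UMI in a cell of median depth, and its part in these shares was not tested.

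**Figure D3:**
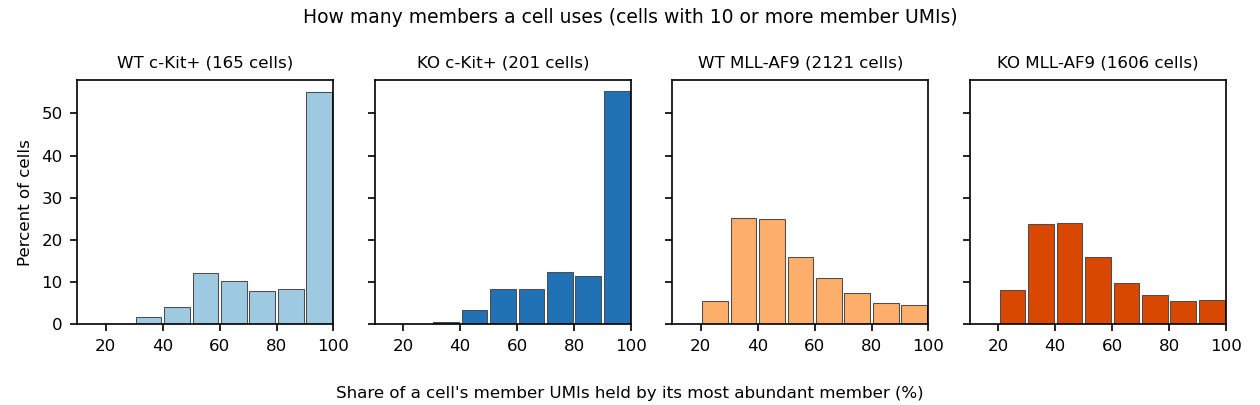
Share of a cell's member UMIs held by its most abundant member (horizontal, bins of 10 percentage points) against the percent of cells with 10 or more member UMIs (vertical), 1 panel per library. The bin from 90% to 100% holds 55.2% of cells in both c-Kit+ libraries and 4.67% and 5.73% in WT and KO leukaemia, where most cells lie between 30% and 60%.

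Correlations over cells are given as a description. Over the 36 pairs of members the median Pearson correlation of log-normalised counts was 0.42 in WT leukaemia (0.18 for Csta2 with Cstdc6 to 0.77) and 0.51 in KO leukaemia, where Stfa1 with Cstdc5 gave 0.80, and 0.05 (WT) and 0.07 (KO) in c-Kit+ marrow, where the counts are sparse. Cells of a library share its depth and free RNA. Stfa1 and Cstdc5 also share stretches of 50 bases, and the part of read assignment in their correlation was not tested.

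Within leukaemia most member UMIs lay in a small share of cells. Cells in which members made up 0.5% or more of all UMIs, a limit also set after the data were seen, were 13.2% of WT cells (12.6% to 13.8%) and 9.17% of KO cells (8.65% to 9.72%), and they held 95.0% and 91.8% of the library's member UMIs. The median member share was 3.15% in these WT cells and 0.0176% in the other WT cells. In KO it was 2.17% and 0.00676%. Cells in between were also present, since at a limit of 0.2% the shares were 17.0% of WT and 12.6% of KO cells, and in KO late cells 130 passed 0.2% and 68 passed 0.5%. The highest cells gave 16.2% (WT) and 13.7% (KO) of their UMIs to the 9 genes. In the secondary granule class the high cells were 29.7% of WT and 13% of KO cells, with 59 and 102 cells within 20% of the limit. There the 10% of cells with most member UMIs held 59.9% (WT) and 89.5% (KO) of them, against 31.1% and 31.5% for Camp. Camp is a gate marker of that class, which limits its spread there. Over all cells of the leukaemia libraries these values were 91.4% and 93.9% for the members and 65.8% and 44.9% for Camp. In c-Kit+ libraries 0.833% (WT) and 0.775% (KO) of cells passed the limit, and 7.78% and 8.22% of the late class.

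Between the leukaemia libraries the summed level was lower in the library labelled KO, 2930 against 5582 CPM, a ratio of 0.525 (0.522 to 0.527), but the ratios of the members were spread widely. Cstdc4 (ratio 0.407, interval 0.402 to 0.411), Cstdc5 (0.418, 0.415 to 0.422) and Stfa3 (0.495, 0.481 to 0.511) were past 2-fold lower. Stfa1 (0.555), Stfa2 (0.734) and Csta3 (0.776) were lower by less, and Stfa2l1 was at 352 and 349 CPM, a ratio of 0.992 (0.977 to 1.01). Csta2 was higher in KO, with a ratio of 1.79 (1.67 to 1.91), as was Cstdc6 with 2.60 (2.22 to 3.04) on 220 and 622 UMIs. In all, 3 of 8 members at a mean of 5 CPM or more were past 2-fold lower and 0 past 2-fold higher, beside 12.7% and 5.56% of all genes. Their median log2 ratio was -0.65, against -0.39 over all genes. With size factors the log2 ratio of the sum was -0.56, 0 members were past 2-fold lower (4.1% of all genes) and 1, Csta2, was past 2-fold higher (1.15 on the log2 scale, 8.86% of all genes). Stfa2l1 then went from -0.01 to 0.36 and Csta3 from -0.33 to 0.0024, so the sign of both depends on the scaling.

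The classes differ in size between the libraries. The ratio of the sum was lower within the 3 neutrophil classes, and within the monocyte class, than over all cells. Secondary granule cells made up 28.3% of WT and 55.7% of KO leukaemia cells, and late cells 5.50% and 5.35%. The KO over WT ratio of the sum was 0.426 (0.416 to 0.436) in progenitors, 0.304 (0.302 to 0.305) in secondary granule cells and 0.299 (0.291 to 0.307) in late neutrophils. In the secondary granule class 5 of 9 members were past 2-fold lower and 0 higher (9.93% and 5.96% of all genes there), and in the late class 6 of 9 and 0 (16.7% and 9.24%). In progenitors the count was 3 of 6 lower and 0 higher (7.11% and 4.87%). Ungated cells differed, with a ratio of 0.758 and 0 of 8 members past 2-fold in either direction (13.5% of all genes lower, 7.7% higher). Stfa2l1, level in the whole libraries, had ratios of 0.572 (0.562 to 0.582) and 0.593 (0.555 to 0.633) in secondary granule and late cells. Csta2 stayed apart, with 1.27 (1.17 to 1.39) and 1.197 (0.944 to 1.52), and its coding-sequence twin Cstdc4 had 0.237 and 0.301. Cstdc6 had 1.44 (1.22 to 1.72) and 0.844 (0.453 to 1.57), and Cstdc5 0.233 and 0.238. The sum in T or NK cells moved with these values, with a ratio of 0.525 (0.352 to 0.776), and the part of free RNA in them was not tested. Both the share of high cells (29.7% against 13% in the secondary granule class) and the median member share in them (4.03% against 2.42%) were lower in KO.

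**Figure D4:**
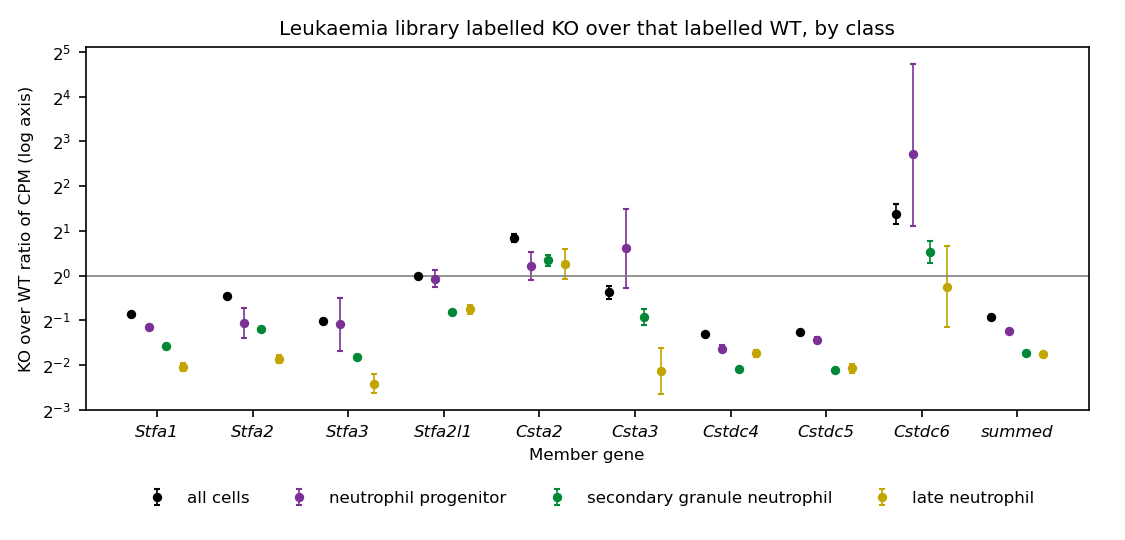
Ratio of CPM in the leukaemia library labelled KO over that labelled WT for each member and their sum (log axis, grey line at 1), in all cells and in 3 classes, with exact 95% intervals for counting error. Cstdc4 and Cstdc5 lie lowest in the secondary granule class at 0.237 and 0.233, while Csta2 lies above 1 in all 4 sets of cells, with intervals that include 1 in progenitors and late cells.

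In c-Kit+ marrow the library labelled KO was higher for Stfa1, at 26.4 against 13.8 CPM, a ratio of 1.92 (1.79 to 2.06), and for Cstdc5, at 9.81 against 4.47 CPM, a ratio of 2.19 (1.95 to 2.47). Stfa2l1 (0.851, 0.795 to 0.911) and Cstdc4 (0.826, 0.764 to 0.892) were lower, although Cstdc4 turned higher with stricter cell filters (0.15 on the log2 scale), and the ratio of the sum was 1.21 (1.17 to 1.26). Of 4 members at a mean of 5 CPM or more, 0 were past 2-fold in either direction on log2(CPM + 1), where Cstdc5 reached 0.98, beside 0.0627% of all genes higher and 0.0314% lower. In the secondary granule class Stfa1 was at 20.9 and 52.5 CPM, a ratio of 2.51 (2.31 to 2.72), and Cstdc5 at 5.40 and 16.6 CPM, a ratio of 3.08 (2.64 to 3.61). Of 3 members at the level, 2 were past 2-fold higher and 0 lower, beside 0.1% and 0.0626% of all genes in the class. In late neutrophils the sum had a ratio of 1.05 (0.995 to 1.10), with 0 of 7 members past 2-fold (2.09% of all genes higher, 0.788% lower), and the interval of Cstdc5 alone was above 1 (1.62, 1.33 to 1.99). Few cells carry these values: the 10 cells with most Stfa1 held 24.1% and 22.7% of its UMIs in the WT and the KO library, and without them the levels were 10.4 and 20.4 CPM. For Cstdc5 the 10 top cells held 35.1% and 37.6%, and the levels without them were 2.91 and 6.12 CPM. With each cell weighted alike, the log2 ratio of the sum was -0.036 in place of 0.27.

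Leukaemia cells with high member levels also had more of a gene that lies near the cluster. Of the 12 nearest protein-coding neighbours that are not cystatins, Fam162a (chr16:36043844-36071561, GRCm38.p6), which encodes a mitochondrial membrane protein, was the one that differed most. Member UMIs were left out of the totals for this comparison. In WT secondary granule cells Fam162a was at 122 CPM in 1071 high cells and 42.7 CPM in the 2540 others, a ratio of 2.86 (2.60 to 3.15), and KO cells had 145 CPM (829 high cells) against 21.0 CPM (5527 others), a ratio of 6.88 (6.31 to 7.51). Ranked by the smaller of both log2 ratios among genes averaging at least 50 CPM, it came first. Past 2-fold higher were 0.477% (WT) and 1.77% (KO) of all genes, and past 2-fold lower 1.07% and 0.895%. Other neighbours with over 10 CPM in these cells were nearer to 1: Ccdc58 had 1.21 and 1.40, Kpna1 1.39 and 1.12, Parp9 0.766 and 1.27, and Dtx3l 0.883 and 1.06. Of these, Ccdc58 (chr16:36071660-36092118) lies between Fam162a and the members. The same direction was found in WT and KO late cells (6.34 and 7.41), in WT progenitors (2.34) and in ungated cells (4.54 and 5.92). In c-Kit+ late neutrophils Fam162a was at 52.6 and 15.1 CPM in WT, a ratio of 3.48 (1.62 to 6.83) on 11 and 45 UMIs, while the KO library gave 45.1 against 23.0 CPM, or 1.97-fold (0.858 to 3.99). Over whole libraries it did not follow the members, at 75.6, 83.1, 59.9 and 37.8 CPM.

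**Figure D5:**
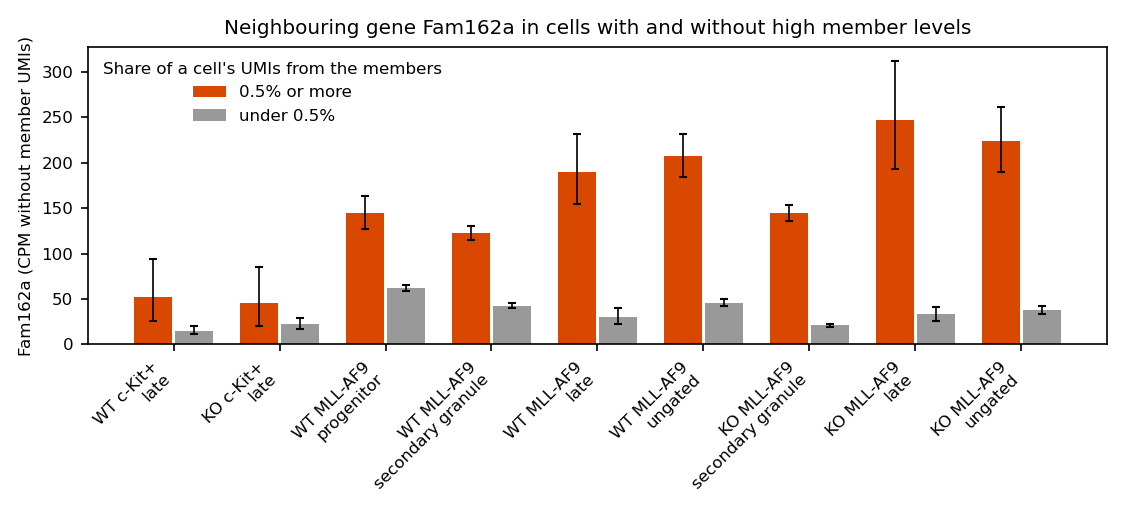
Fam162a level in CPM, member UMIs left out of the totals, in cells with 0.5% or more (orange) and under 0.5% (grey) of their UMIs from the members, by library and class with 50 or more high cells, with exact 95% Poisson bars. The orange bars stand at 122 to 247 CPM in the 7 leukaemia pairs and the grey bars at 21.0 to 61.7 CPM.

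Markers of the class were closer between high and other cells than Fam162a was. No conclusion is drawn from this, because Fam162a came top of its ranking and the class was gated on these markers. Camp was at 28838 and 20252 CPM in WT high and other cells and at 27357 and 26298 CPM in KO. Ngp was at 14863 and 15399 CPM in WT and at 19900 and 24135 CPM in KO. Ltf, Lcn2 and Cd177 were lower in high cells, with ratios of 0.757, 0.735 and 0.672 in WT and 0.812, 0.776 and 0.678 in KO. Meis1 was at 496 and 491 CPM in WT and at 481 and 312 CPM in KO, so the high cells had leukaemia levels of it. The genes named next were picked after their values were seen. Higher in high cells of both libraries were Olfm4, a secreted granule glycoprotein (ratios 2.16 in WT and 1.81 in KO), Penk, which encodes the enkephalin precursor (2.19 and 2.28), and Vcam1, an adhesion receptor (3.32 and 2.89). Lower were Mecom, a transcription factor of stem cells and some leukaemias (1045 CPM in other and 332 CPM in high WT cells, 1344 and 623 CPM in KO), Cacna1e, a calcium channel subunit (0.210 and 0.290), and Ifitm3 (0.410 and 0.488).

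Olfm4 was also the gene most like the members across libraries and classes. Over 38 sums by library and class, its log2(CPM + 1) had a Pearson correlation of 0.94 with that of the member sum, the highest of 3287 genes averaging at least 50 CPM. Next came Cd33, a myeloid surface receptor (0.93), Aff2 (0.90), Padi4, which citrullinates histones in neutrophils (0.89), Pilra (0.88), R3hdm4 and Abca13 (both 0.87), Cd300lf and Fmo5 (both 0.85) and Mrgpra2b (0.84). The members correlated with each other at 0.72 (Stfa1 with Cstdc6) to 0.99 (Stfa1 with Cstdc5). These sums share libraries and marker gates, and the uncertainty of assignment between Stfa1 and Cstdc5 holds here too.

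Few other cystatins were at a level that allows comparison. Of 16 listed, 15 were found, and 3 were at 5 CPM or more between WT leukaemia and WT c-Kit+ cells, 1 past 2-fold higher and 1 lower (16% and 6.01% of all genes). Cstb, the stefin B gene, was at 63.5, 67.6, 130 and 109 CPM, which is 2.05-fold higher in WT and 1.61-fold higher in KO leukaemia than in c-Kit+ marrow, and a KO over WT ratio of 0.839 in leukaemia. Cst3, which encodes cystatin C, was at 405, 456, 543 and 432 CPM. Cst7, which encodes cystatin F, an inhibitor kept in vesicles, was lower in leukaemia, at 75.9, 87.1, 3.55 and 1.99 CPM. Between the leukaemia libraries 0 of 2 at the level were past 2-fold in either direction (5.56% of all genes higher, 12.7% lower). Csta1, which carries the stefin A name but is no member here, had 0, 0, 0 and 3 UMIs. Cstdc3, outside both the members and this list, shares stretches of 50 bases with Stfa2 and had 2, 2, 24 and 139 UMIs.

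Among 11 cysteine proteases, 10 papain-like cathepsins and the unrelated legumain (Lgmn), 8 were at 5 CPM or more. Between the leukaemia libraries 1 was past 2-fold higher in KO and 0 lower, beside 5.56% and 12.7% of all genes. It was Ctsl, which encodes cathepsin L, at 25.7, 26.8, 34.7 and 252 CPM, a KO over WT ratio of 7.24 (6.97 to 7.52). Ctsb was at 121, 120, 371 and 272 CPM, Ctsh at 68.3, 63.9, 240 and 221 CPM and Ctsz at 62.0, 69.2, 139 and 105 CPM. Ctss was at 47.1, 51.1, 154 and 87.9 CPM. Higher in WT leukaemia than in WT c-Kit+ cells by 2-fold or more were 5 of 8, namely Ctsb, Ctsc, Ctsh, Ctss and Ctsz, with 0 lower, beside 16% and 6.01% of all genes, and in KO 4 of 8 were higher, beside 12.8%. Of the 12 neighbours 7 were at the level between the leukaemia libraries. Cd86, at 4.75 (WT) and 35.6 (KO) CPM, was past 2-fold higher, and Ccdc58, at 29.8 and 14.2 CPM, past 2-fold lower.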

How the data were processed

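The deposited values are unnormalised UMI counts, 1 matrix of genes by cells for each of 4 libraries, which the authors made with Cell Ranger 7.1.0 and mm10 per the submitters' processing notes. The annotation and the handling of reads shared between gene copies are not given in the sources used here. Cells with at least 500 genes, at least 1000 UMIs and at most 10% mitochondrial UMIs were kept, and doublets called by Scrublet (scanpy 1.11.5, expected rate 0.08) were removed, 3.09% to 4.46% of cells. Kept UMIs per library were 86739221 to 96153076. Counts were summed per library or class and divided by the total to give CPM. Intervals are exact Poisson, conditional binomial or Clopper-Pearson (Python 3.11.15, scipy 1.17.1) and cover counting error only, and the limit for a count of 0 is 3 counts of the total. Fold limits were applied to log2(CPM + 1) at a mean of 5 CPM or more. A class needed 3 of 5 markers and a marker sum per 10000 UMIs of at least 50 (progenitor, late), 150 (secondary granule) or 10 (others). The rule named all members, up to 4 of each other list by mean CPM and those past 2-fold in leukaemia, gate markers beside a result, and the 10 genes most like the members. Vcam1, Penk, Mecom, Cacna1e, Ifitm3, Csta1, Cstdc3, Parp9, Dtx3l and Lgmn fall outside it or were picked after their values were seen. Wdr5b, Slc15a2, Eaf2, Iqcb1, Casr and Ildr1 also fall outside the rule. The members and lists were chosen with earlier results of these data known, and the gate limits, the 0.5% and 10-UMI limits and the TTTAAAA motif after values were seen. Scripts were tested on simulated data. Alternatives changed cell filters, scaling, pseudocount, gates, depth and limits.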

Additional observations from a re-analysis of the deposited data

Results flagged for a closer look

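Stfa1 and Cstdc5 stood on opposite sides of 1 in leukaemia and in c-Kit+ marrow when the library labelled KO was set over WT. Stfa1 had a ratio of 0.555 in MLL-AF9 cells and 1.92 in c-Kit+ cells. Cstdc5 had a ratio of 0.418 in MLL-AF9 cells and 2.19 in c-Kit+ cells. With 1 library per group the difference between the tissues was not tested.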

How the results depend on the processing

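No paired analysis was possible because each group has 1 library, and no library could be left out. The log2 KO over WT ratio of the member sum in leukaemia, -0.93, was -0.94 with stricter cell filters, -0.56 with size factors, -0.92 with members and haemoglobin genes out of the total, -0.97 with equal weight per cell, -1.70 in late and secondary granule cells only and -0.91 without erythroid, T or NK and B cells. Members past 2-fold higher numbered 1 with no level filter and 1 with size factors, against 0, and members lower 0 with size factors, against 3. In c-Kit+ cells the value of 0.27 was 0.67 with stricter filters, -0.036 with equal weight and 0.38 in late and secondary granule cells only. Over all cells the sign of a single member was kept in 87 of 90 KO over WT values in leukaemia and 86 of 90 in c-Kit+ cells. The exceptions in leukaemia were Csta3 (0.0024) and Stfa2l1 (0.36) with size factors and Stfa2l1 (0.0084) without erythroid, T or NK and B cells. In c-Kit+ cells they were Cstdc4 (0.15) and Csta3 (0.085) with stricter filters, Stfa3 (-0.017) with equal weight and Stfa2 (0.025) in late and secondary granule cells only. Leukaemia over c-Kit+ was 6.50 in WT and 5.30 in KO. With all barcodes it was 6.44 and 5.24, with stricter filters 7.39 and 5.78, with doublets kept 6.46 and 5.28, with size factors 6.21 and 5.37, with a pseudocount of 10 CPM 6.31 and 5.14, with equal weight 5.19 and 4.25, in late and secondary granule cells 6.92 and 4.83, and without erythroid, T or NK and B cells 6.39 and 5.21. With the c-Kit+ libraries (WT, KO) before those of leukaemia (WT, KO), cells with a member UMI were 8.05%, 9.96%, 73.4% and 56.9% unthinned and 4.14%, 5.92%, 57.8% and 43.0% at 4000 UMIs. The secondary granule sum was 17428 (WT) and 4605 (KO) CPM in leukaemia with a stricter gate, and 14557 and 4457 CPM with doublets kept. The median pair correlation in leukaemia was 0.36 (WT) and 0.38 (KO) in cells thinned to 2000 UMIs. The following limits were chosen after seeing the data. High cells were 2.03%, 1.90%, 17.0% and 12.6% at 0.2%, and 0.259%, 0.196%, 10.7% and 6.92% at 1%. Cells led by a single member were 35.2%, 44.4%, 2.18% and 2.09% with 20 or more member UMIs, 8.93% in KO MLL-AF9 with 5 or more, and 8.86% (WT) and 9.03% (KO) in MLL-AF9 with 10 UMIs drawn per cell. The cause of these shifts was not tested. Depth limits Csta2, Csta3 and Cstdc6 in c-Kit+ cells.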
